A study of Saccharomyces cerevisiae with 15 samples.

Results

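Transcript levels of 10 genes of glycogen synthesis and breakdown were followed in a xylose-utilising strain of baker's yeast, Saccharomyces cerevisiae VTT-C-99318, on glucose and on xylose. The genes were chosen by name, as PGM1, PGM2, UGP1, GLG1, GLG2, GSY1, GSY2, GLC3, GPH1 and GDB1, out of 5656 genes named by a probe set of the array, and each had exactly 1 probe set. The strain was a haploid of mating type alpha in the CEN.PK2-1D background, a parent with mutations in LEU2, URA3, TRP1 and HIS3 and with the MAL2-8c and SUC2 alleles. In all groups it carried the Pichia stipitis genes XYL1, driven by the PGK1 promoter, and XYL2, driven by an altered ADH1 promoter, at URA3. An additional copy of the yeast gene XKS1, also behind an altered ADH1 promoter, sat at HIS3 with the kanMX marker. All groups also shared aerobic bioreactors with synthetic complete medium at pH 5.5 and 30°C, and a start at 50 g/l of a single sugar. The glucose repressed cells (Glc5h) were taken after 5 h on glucose, with 37 g/l of glucose left. The glucose derepressed cells (Glc24h) were taken after 24 h from the same 3 cultures, when glucose was at 0 g/l and 13 g/l of ethanol had accumulated. The xylose cells (Xyl72h) were taken after 72 h from 3 separate cultures with 32 g/l of xylose left. The 3 cultures of each state are numbered 0, 1 and 2 as in the labels, and the cultures numbered 2 were hybridised 3 times, which gave 15 arrays for 9 cultures. All groups stem from this 1 engineered strain, so the values hold for that strain.

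Glycogen is a branched polymer of glucose that yeast lays down as a carbohydrate reserve. Phosphoglucomutase turns glucose 6-phosphate into glucose 1-phosphate, UDP-glucose pyrophosphorylase makes UDP-glucose from it, glycogenin starts a chain on itself, glycogen synthase lengthens the chain and the branching enzyme adds branches. Glycogen phosphorylase and the debranching enzyme take the polymer apart again. In yeast the reserve is known to be low during fast growth on glucose and to build up as glucose runs out. Enzyme activity is set to a large extent by phosphorylation and by glucose 6-phosphate, which an array of transcripts does not measure.

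Values are array signals after each array was brought to a common 75th percentile, with a floor of 16 below which signals are not told apart. They can be compared for 1 gene between cultures but not between genes, because each probe set binds with its own efficiency. Over the 10 genes and 3 states, the SD between the 3 hybridisations of a culture, taken before the floor, had a median of 0.0967 on the log2 scale. The SD between cultures, taken after the floor, had a median of 0.359. It was the larger, but it also holds any difference between the hybridisations of separate cultures. The cultures numbered 2 were averaged over 3 arrays each, which lowers the error from hybridisation. The 3'/5' signal ratio of actin, a measure of RNA integrity, was between 1.86 and 3.01 on 14 arrays and 10.3 on the array of Glc24h culture 1. The same ratio of another control gene, YER148W, was 3.24 on that array, within its range of 2.71 to 4.13 over all 15. The alpha markers STE3 and MF(ALPHA)1 were above the floor in every culture, and the a markers STE2, MFA1 and BAR1 were at the floor in all 9, with MFA2 at most at 25.1. MF(ALPHA)2 was 5.64-fold lower in Glc24h than in Glc5h (adjusted p = 0.0304) and 10.3-fold higher in Xyl72h than in Glc24h (adjusted p = 0.0383). Of 8 genes repressed by glucose, SUC2 was at the floor everywhere and the other 7 were all higher in Glc24h than in Glc5h, among them MLS1 (at least 56.6-fold), PCK1 (46.5-fold) and ICL1 (42.9-fold). ICL1 was at the floor in 2 of the Glc5h cultures and PCK1 in 1, so their folds depend on the floor too. In Xyl72h 6 of the 7 genes other than SUC2 were higher than in Glc5h and 6 were lower than in Glc24h. The shares of all probe sets were 14.4%, 11.7% and 2.26% in these directions. MLS1 was at least 15.03-fold above Glc5h, with HXK1 14.8-fold and JEN1 at least 10.1-fold above it. FBP1 was 14.9-fold below Glc24h, with PCK1 8.71-fold and ADH2 4.89-fold below it. The ADH2 call (limma, adjusted p = 0.0486) was lost in 13 of 21 alternative fits, and the PCK1 call in 3 of 21.

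As glucose gave way to ethanol, the Glc24h level exceeded that of Glc5h in 7 of the 10 genes and was lower in 1, PGM1 (limma, adjusted p below 0.05). Over all 5877 probe sets tested, 14.4% were called higher and 19.1% lower in this comparison. The groups of cultures did not overlap for these same 7 higher genes and 1 lower gene, against 18.6% and 23.9% of all probe sets. The median log2 difference of the 10 genes was 1.77 and that of all tested probe sets -0.03. When only the 6 glucose samples were fitted, with the culture as a block, GLG2 was higher and PGM1 lower, and the other 6 genes had adjusted p-values between 0.0508 and 0.138. In that fit 7.01% of all probe sets were higher and 8.75% lower, so that 1 of 10 genes in each direction was near the share of the whole array. When the xylose cultures were kept in the fit to estimate the spread and the glucose cultures were the block, all 7 higher genes and PGM1 passed, where 14.99% of all probe sets were higher and 20.6% lower.

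In xylose-grown cells 3 of the 10 genes, GPH1, GDB1 and PGM2, were higher than in Glc5h and 1, PGM1, was lower. The shares of all probe sets were 11.7% higher and 14.0% lower. In 7 genes every xylose culture was above every Glc5h culture, and in PGM1 every one was below, against 19.4% and 21.6% of all probe sets. The median log2 difference of the 10 genes was 1.23, against -0.02 for all. The 4 genes that did not overlap but missed the threshold were GSY2, GLG1, GLG2 and GLC3, with adjusted p-values between 0.0501 and 0.0891. With the number of the culture as a block in all 3 states, GLG1 (adjusted p = 0.0326) and GLG2 (0.0430) passed and PGM2 (0.0589) did not. PGM2 also missed with the glucose cultures alone as the block (0.0519).

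Between Xyl72h and Glc24h none of the 10 genes passed the test in limma, with 0 higher and 0 lower, where 3.37% of all probe sets were higher and 2.26% lower. At an unadjusted p below 0.05 there was 1 gene higher on xylose, UGP1, and 1 lower, GLG2. The groups did not overlap for 3 genes, GSY2, GLC3 and GDB1, which were lower in each xylose culture than in each Glc24h culture, and for 0 higher genes, against 10.3% and 14.5% of all probe sets. Of the 10 log2 differences 8 were negative and the median was -0.50, against 0 for all. In 6 of the 10 genes the mean of the xylose cultures lay between the means of both glucose states, as it did for 43.7% of all probe sets. Over the 3 states together 7 genes changed by limma's F-test, where 34.3% of all probe sets did, and GSY1, UGP1 and GLC3 (adjusted p = 0.0559) did not pass. In whole cultures like these, fewer cells that express a gene and less of its RNA per cell cannot be told apart.

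**Figure D1:**
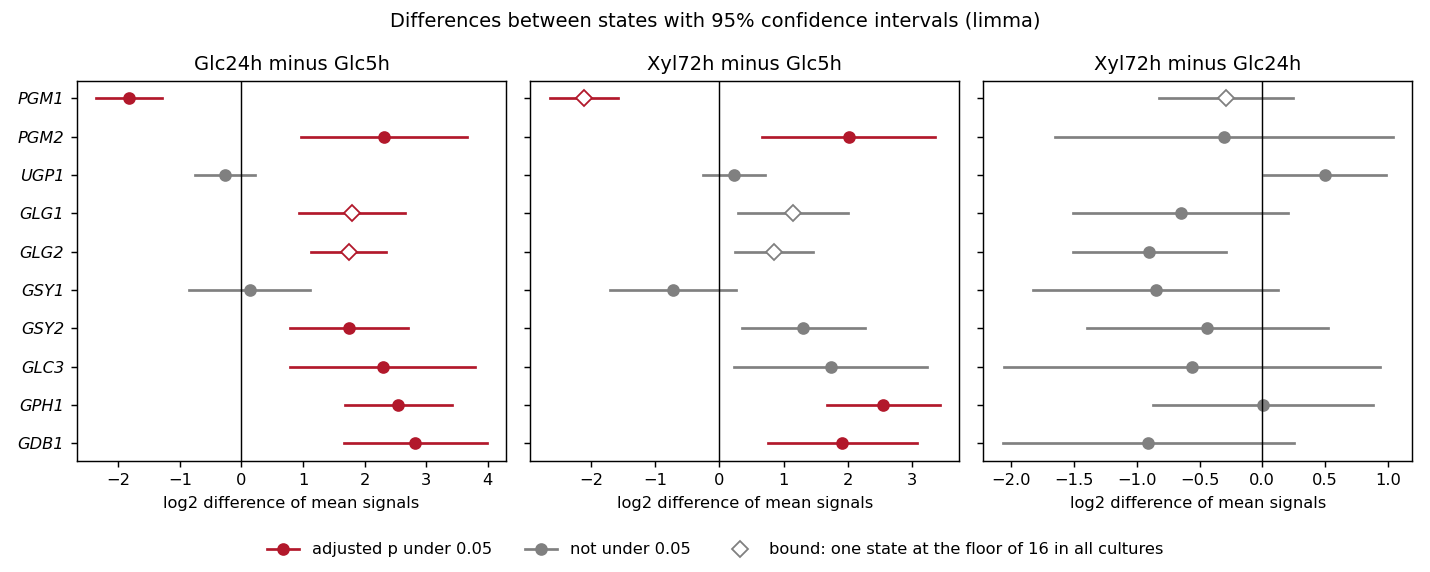
Log2 differences of mean signals (x axis) of the 10 genes (y axis) in the 3 comparisons, with limma's 95% confidence intervals as lines, 3 cultures per state. Filled red marks passed the test, grey marks did not, and open diamonds are bounds, where 1 state was at the floor in all cultures. In Glc24h minus Glc5h 7 genes passed to the right of 0 and PGM1 to the left, and in Xyl72h minus Glc24h no gene passed.

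The first step, from glucose 6-phosphate to glucose 1-phosphate, is made by phosphoglucomutase, whose minor form is encoded by PGM1 (YKL127W) and whose major form by PGM2 (YMR105C). PGM1 signals were 85.0, 80.0 and 48.2 in Glc5h cultures 0, 1 and 2. In Glc24h they were 21.6, 21.5 and the floor of 16, and in all 3 Xyl72h cultures PGM1 was at the floor. The Glc5h cultures were thus above all 6 others. PGM1 fell by 1.82 on the log2 scale in Glc24h (SE 0.23, adjusted p = 0.00116), which was 3.53-fold. In Xyl72h it was at least 4.31-fold below Glc5h (adjusted p = 0.00107). It was the only gene of the 10 that fell in all 3 glucose cultures.

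PGM2 signals were 18.7, 89.2 and 87.1 in Glc5h cultures 0, 1 and 2, so culture 0 stood well below the others. They were 336, 267 and 202 in Glc24h and 256, 193 and 196 in Xyl72h, with every one of these 6 cultures above every Glc5h culture. The log2 difference from Glc5h was 2.32 in Glc24h (SE 0.58, 5.00-fold, adjusted p = 0.0181) and 2.02 in Xyl72h (SE 0.58, 4.05-fold, adjusted p = 0.0393). Without Glc5h culture 0 the Xyl72h call stood, but it was lost when any one of the Glc24h or Xyl72h cultures was left out. Xyl72h and Glc24h overlapped (log2 difference -0.30, 95% confidence interval -1.65 to 1.04).

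The next enzyme, UDP-glucose pyrophosphorylase, is encoded by UGP1 (YKL035W), which is essential and also feeds the synthesis of trehalose and of the cell wall. Its signals were 213, 266 and 294 in Glc5h, 234, 224 and 180.2 in Glc24h, and 371, 309 and 233 in Xyl72h. All 3 states overlapped, and the lowest of the 9 values was 1 of Glc24h. Glc5h averaged 258 ± 40.8, Glc24h 213 ± 28.6 and Xyl72h 304 ± 69.4 (SD, n = 3 each). Xyl72h stood 0.50 above Glc24h on the log2 scale (95% confidence interval 0.01 to 0.99, adjusted p = 0.248). The Glc24h minus Glc5h difference of -0.27 (adjusted p = 0.357) turned positive under quantile, loess and reference-gene scaling.

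**Figure D2:**
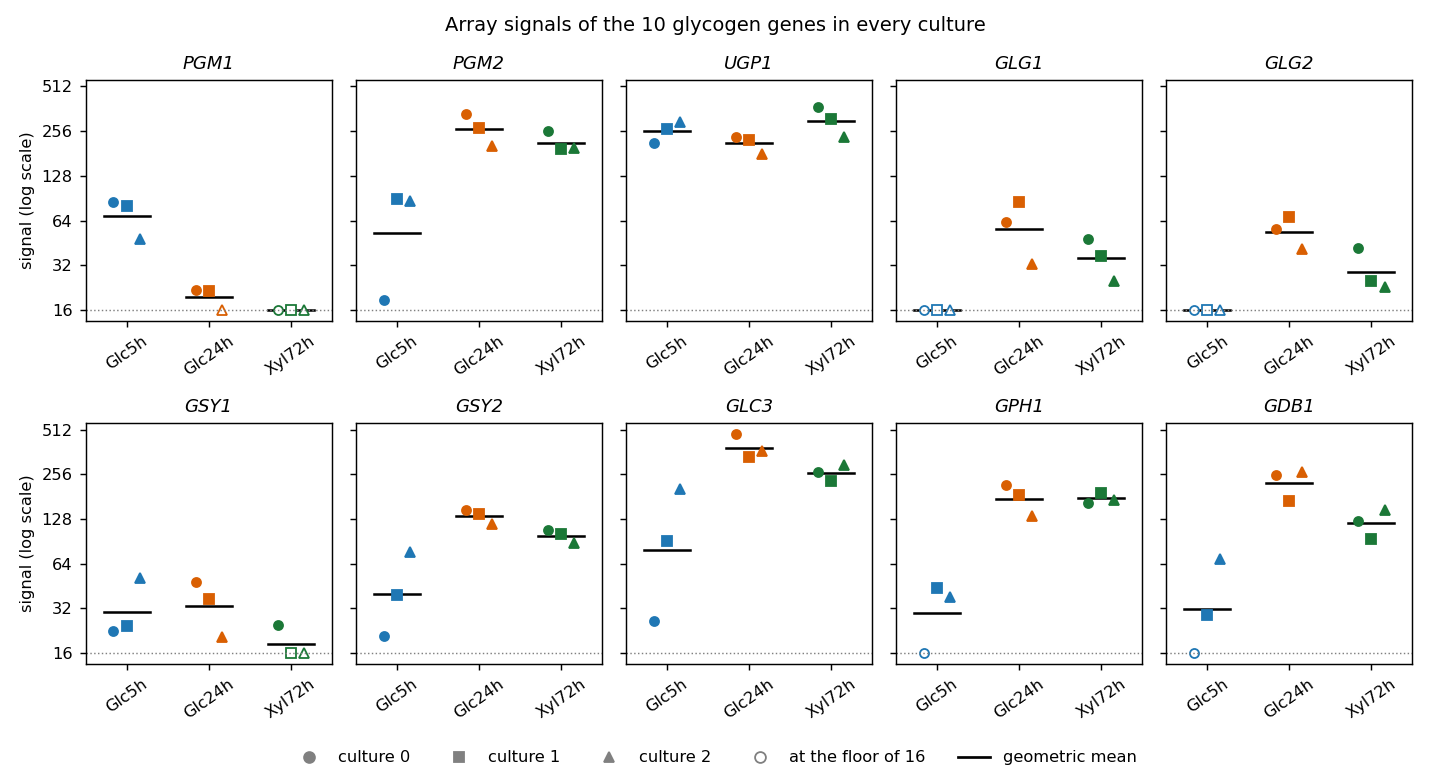
Signals (y axis, log scale, scaled array units) of the 10 genes in each culture of Glc5h (blue), Glc24h (orange) and Xyl72h (green), with the geometric mean of 3 cultures as a bar and open symbols for values at the floor of 16. GLG1 and GLG2 are at the floor in all Glc5h cultures, PGM1 in all Xyl72h cultures, and Glc5h culture 0 (circle) is the lowest of its state for 7 of the 10 genes.

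Chain initiation depends on glycogenin, of which yeast has 2 forms encoded by GLG1 (YKR058W) and GLG2 (YJL137C). Both genes were at the floor in all 3 Glc5h cultures. GLG1 signals were 62.2, 85.8 and 32.5 in Glc24h and 48.2, 37.1 and 25.1 in Xyl72h. GLG1 was therefore at least 3.48-fold higher in Glc24h (adjusted p = 0.00851). In Xyl72h the bound was at least 2.22-fold, which did not pass (adjusted p = 0.0561).

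GLG2 signals were 55.9, 67.4 and 41.2 in Glc24h and 41.8, 25.2 and 22.6 in Xyl72h. GLG2 was at least 3.36-fold higher in Glc24h than in Glc5h (adjusted p = 0.00237), a call that stood in each of the 21 alternatives in which it was tested. Its bound in Xyl72h was at least 1.80-fold (adjusted p = 0.0501). Both genes had lower means on xylose than in Glc24h, with 1 xylose culture reaching into the Glc24h range for GLG2 and 2 for GLG1. The GLG2 difference of -0.90 (SE 0.26) had an adjusted p = 0.103 in limma (0.00955 before adjustment). It passed when Xyl72h culture 0, the highest of its state, was left out (adjusted p = 0.0472).

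Glycogen synthase, which lengthens the chain, is encoded by GSY1 (YFR015C) and GSY2 (YLR258W), of which GSY2 is known as the predominant form in stationary phase. GSY1 signals were 22.4, 24.5 and 51.3 in Glc5h, 48.5, 37.0 and 20.6 in Glc24h, and 24.6, 16 and 16 in Xyl72h. The glucose states covered nearly one range, and xylose cultures 1 and 2 lay at the floor. No comparison of GSY1 passed. The difference Xyl72h minus Glc5h was -0.72 (SE 0.42, adjusted p = 0.252), and Xyl72h minus Glc24h was -0.85 (SE 0.42, adjusted p = 0.325). Glc24h minus Glc5h was 0.13 (adjusted p = 0.841), with a sign that turned when Glc5h culture 0, Glc5h culture 1 or Glc24h culture 0 was left out.

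GSY2 signals were 20.9, 39.4 and 76.9 in Glc5h, 147, 138 and 118 in Glc24h, and 108, 101 and 88.4 in Xyl72h. The 3 states did not overlap, with Glc5h the lowest and Glc24h the highest. GSY2 was 3.35-fold higher in Glc24h than in Glc5h (log2 difference 1.75, SE 0.41, adjusted p = 0.0149). In Xyl72h it was 2.47-fold higher than in Glc5h, which narrowly missed the threshold (log2 difference 1.31, SE 0.41, adjusted p = 0.0538). Xyl72h minus Glc24h was -0.44 (95% confidence interval -1.40 to 0.52, adjusted p = 0.678).

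Branches are added by the glycogen branching enzyme, encoded by GLC3 (YEL011W). Its signals were 26.4, 91.4 and 205 in Glc5h, 479, 333 and 365 in Glc24h, and 266, 232 and 294 in Xyl72h. As with GSY2 the 3 states did not overlap, but the Glc5h cultures alone spanned from 26.4 to 205. GLC3 was 4.90-fold higher in Glc24h than in Glc5h (log2 difference 2.29, SE 0.64, adjusted p = 0.0287). This call was lost in 6 of 22 alternatives, among them the omission of Glc5h culture 1 or of any one Glc24h culture. Xyl72h was 3.32-fold above Glc5h without passing (log2 difference 1.73, SE 0.64, adjusted p = 0.0891). Leaving out Glc5h culture 2, the highest of its state, brought the Xyl72h difference past the threshold.

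On the side of breakdown, glycogen phosphorylase, which releases glucose 1-phosphate from the chain ends, is encoded by GPH1 (YPR160W). GPH1 signals were 16 (the floor), 43.7 and 38.4 in Glc5h, 218, 186 and 133 in Glc24h, and 164, 193 and 172 in Xyl72h. All 6 later cultures were above the Glc5h cultures by a wide margin, and the later states overlapped. The log2 difference from Glc5h was 2.55 in Glc24h (SE 0.38, 5.86-fold, adjusted p = 0.00223) and 2.56 in Xyl72h (SE 0.38, 5.88-fold, adjusted p = 0.00334). GPH1 was higher in Xyl72h than in Glc5h in all 21 alternatives, with adjusted p-values from 0.000644 to 0.0160. Xyl72h minus Glc24h was 0.00 (95% confidence interval -0.87 to 0.88), and its sign varied with the scaling.

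The debranching enzyme, which clears the branch points that phosphorylase cannot pass, is encoded by GDB1 (YPR184W). Its signals were 16 (the floor), 28.9 and 69.3 in Glc5h, 254, 169 and 265 in Glc24h, and 124, 93.6 and 148 in Xyl72h. The 3 states did not overlap. GDB1 was 7.08-fold higher in Glc24h than in Glc5h (log2 difference 2.82, SE 0.50, adjusted p = 0.00465). That was the largest rise among the genes not at the floor in a whole state. With Glc5h culture 0 at the floor, it rests in part on a bound. In Xyl72h it was 3.77-fold above Glc5h (log2 difference 1.91, SE 0.50, adjusted p = 0.0277) and 0.91 below Glc24h on the log2 scale, since Xyl72h minus Glc24h was -0.91 (95% confidence interval -2.07 to 0.25, adjusted p = 0.390). The Xyl72h call against Glc5h was lost in 7 of 21 alternatives, among them the omission of Glc5h culture 0 or 1 or of any one Xyl72h culture.

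The cultures of a state were ordered alike across several of the genes. In Glc5h culture 0 was the lowest for 7 of the 10 genes and the highest only for PGM1, while culture 2 was the highest for 5. In Glc24h culture 0 was the highest for 7 genes and culture 2 the lowest for 8. In Xyl72h culture 0 was the highest for 6 genes. The change from 5 h to 24 h within a culture therefore differed in size between cultures.

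In 7 genes the signal rose in each of the 3 glucose cultures, and in all 7 the rise was the smallest in culture 2. For 5 of them, GSY2, GLC3, GPH1, GDB1 and PGM2, the rise was the largest in culture 0. GLC3 rose by 4.18, 1.86 and 0.83 on the log2 scale in cultures 0, 1 and 2, and PGM2 by 4.17, 1.58 and 1.22. GDB1 rose by 3.99, 2.55 and 1.94, and GPH1 by 3.77, 2.09 and 1.80, where the rise of culture 0 is a bound for both genes because its 5 h value was at the floor. GSY2 rose by 2.81, 1.81 and 0.61. The glycogenin genes rose the most in culture 1, GLG1 by at least 2.42 and GLG2 by at least 2.07. PGM1 was the most even of the genes that moved, with changes of -1.98, -1.90 and -1.59, the last of them a bound since PGM1 was then at the floor. GSY1 changed by 1.12, 0.60 and -1.32 and UGP1 by 0.13, -0.25 and -0.70, so both went in different directions in different cultures.

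**Figure D3:**
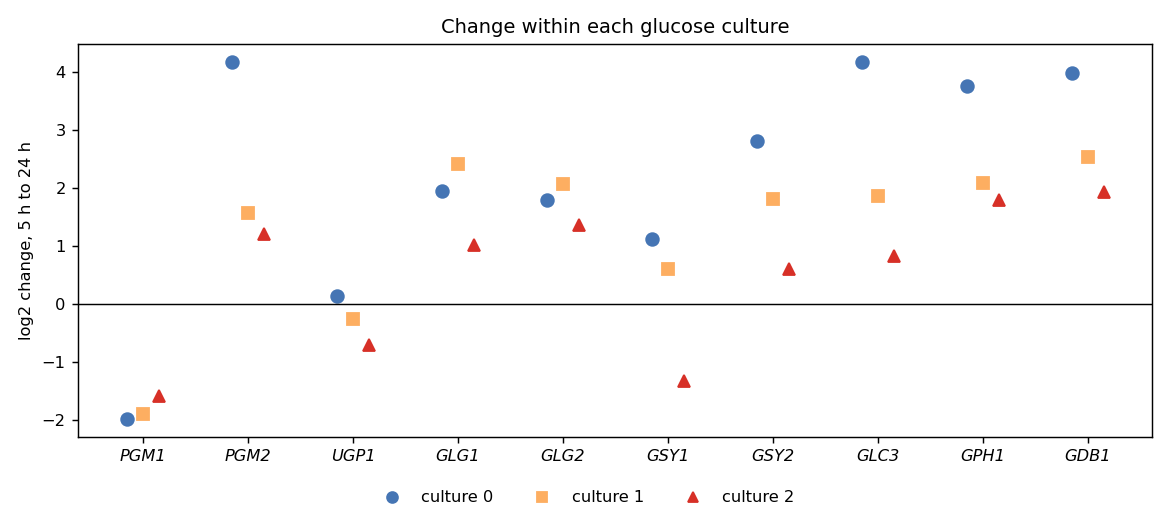
Log2 change of signal from 5 h to 24 h (y axis) of the 10 genes (x axis) within glucose cultures 0 (blue circle), 1 (orange square) and 2 (red triangle). The 7 genes that rose in all cultures rose the least in culture 2, and PGM1 fell by 1.59 to 1.98 in each.

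Leaving out the cultures that stood apart gave the following counts. Without Glc5h culture 0 the same 7 genes stayed higher and PGM1 lower in Glc24h against Glc5h, and on xylose GPH1 and PGM2 were higher and PGM1 lower. The shares of all probe sets were then 10.7% higher and 15.4% lower in Glc24h, and 7.49% higher and 10.2% lower on xylose. Without Glc24h culture 1, the one with the actin ratio of 10.3, 5 genes (GSY2, GLG1, GLG2, GPH1 and GDB1) remained higher in Glc24h than in Glc5h, where 13.6% of all probe sets were higher. On xylose GLG1, GPH1 and GDB1 were then higher than in Glc5h, where 11.9% of all probe sets were. Without Glc24h culture 0, 4 genes (GLG1, GLG2, GPH1 and GDB1) were higher in Glc24h, where 12.2% of all probe sets were. When any one xylose culture was left out, GPH1 was the only 1 of the 10 genes higher in Xyl72h than in Glc5h, near the 7.64% to 8.54% of all probe sets in those fits. PGM1 was lower than in Glc5h in all of these fits, in Glc24h and in Xyl72h.

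Phosphoglucomutase, glycogen synthase and glycogenin each have 2 genes, and the balance within each pair was followed by the log2 ratio of both signals in the same culture. The ratio itself is not a ratio of transcript numbers, but its change between states does not depend on a scaling factor per array except at the floor. GSY2 over GSY1 was -0.10, 0.69 and 0.58 in Glc5h, 1.60, 1.90 and 2.52 in Glc24h, and 2.13, 2.66 and 2.47 in Xyl72h. The last 2 are lower bounds, since GSY1 was at the floor. The Glc5h values were below all others, and the mean rose from 0.39 ± 0.43 to 2.00 ± 0.47 and 2.42 ± 0.27 (SD, n = 3). Over the 3 states the two-sided exact permutation test gave p = 0.0107, adjusted over the 3 ratios to 0.0321.

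PGM2 over PGM1 moved further, from -2.19, 0.16 and 0.85 in Glc5h to 3.96, 3.63 and 3.66 in Glc24h and 3.997, 3.59 and 3.61 in Xyl72h. All 3 xylose values and the last of Glc24h are lower bounds. The means were -0.39 ± 1.59, 3.75 ± 0.18 and 3.73 ± 0.23 (SD, n = 3), and the exact permutation test gave p = 0.025 (adjusted 0.0375). GLG2 over GLG1 could not be measured in Glc5h, where both genes were at the floor. Its means were -0.05 ± 0.36 in Glc24h and -0.31 ± 0.22 in Xyl72h, and with the Glc5h ratios entered as 0 the exact permutation p was 0.35. In pairwise comparison of states the smallest p that 3 against 3 cultures allow is 0.1, which both moving ratios reached for Glc24h and for Xyl72h against Glc5h. With permutation within culture numbers as a block, the exact p was 0.0556 (adjusted 0.0833) for both ratios, and without Glc24h culture 0 both adjusted values were 0.0536.

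**Figure D4:**
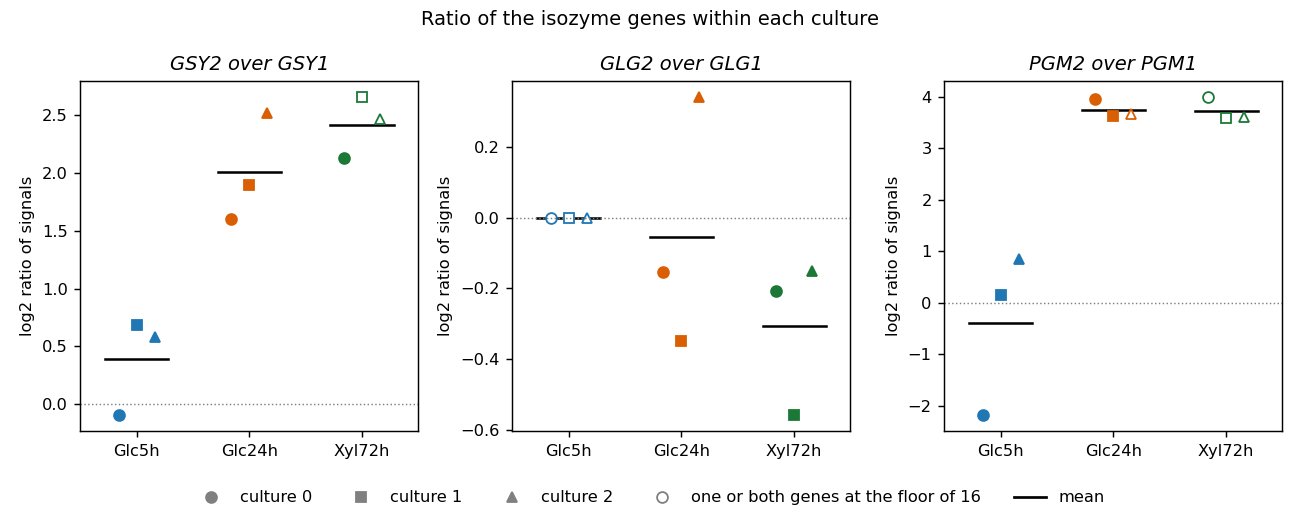
Log2 ratio of the signals of both genes of a pair (y axis, own scale in each panel) within each culture of Glc5h, Glc24h and Xyl72h, with the mean as a bar and open symbols where 1 or both genes were at the floor. GSY2 over GSY1 and PGM2 over PGM1 are higher in all Glc24h and Xyl72h cultures than in any Glc5h culture, while GLG2 over GLG1 stays between -0.56 and 0.34.

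Glycogen synthase is switched on by dephosphorylation through protein phosphatase 1, and targeting subunits bring that phosphatase to glycogen. Of 6 genes of this group, all tested, against Glc5h 2 were higher and 0 lower in Glc24h, and 1 was higher and 0 lower in Xyl72h, while 0 were higher and 1 lower in Xyl72h than in Glc24h. Their median log2 differences were 0.64, 0.42 and -0.21. Against Glc5h 14.4% of all probe sets were higher and 19.1% lower in Glc24h, and 11.7% and 14.0% in Xyl72h. Between Xyl72h and Glc24h 3.37% were higher and 2.26% lower. The 1 higher gene of 6 on xylose was thus near the share of the whole array. GAC1, the main glycogen-targeting subunit, was at the floor in all Glc5h cultures, at 208, 115 and 125 in Glc24h and at 78.1, 42.3 and 49.8 in Xyl72h. The 3 states did not overlap, and GAC1 was at least 9.02-fold higher in Glc24h (adjusted p = 0.000296) and at least 3.43-fold higher in Xyl72h (adjusted p = 0.00457) than in Glc5h. On xylose it was 2.63-fold below Glc24h (adjusted p = 0.0341), a call lost in 13 of 21 alternatives, among them the omission of any one culture other than Xyl72h culture 0. GLC8, a regulator of the phosphatase, was at 75.03, 50.7 and 61.2 in Glc5h and at 90.4, 122 and 89.1 in Glc24h, a 1.61-fold rise (adjusted p = 0.0223). The catalytic subunit gene GLC7 did not pass in any comparison.

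Of 7 genes for kinases that phosphorylate glycogen synthase and their cyclins, PCL6 and PCL10 were at the floor in every culture. Of the 5 tested, 2 were higher in Glc24h and 1 in Xyl72h than in Glc5h, 0 were lower, and 0 were called between Xyl72h and Glc24h in limma, also 0 at an unadjusted p below 0.05. Their medians were 0.36, 0.34 and -0.10. Against Glc5h 14.4% of all probe sets were higher and 19.1% lower in Glc24h, and 11.7% and 14.0% in Xyl72h. Between Xyl72h and Glc24h 3.37% were higher and 2.26% lower. PSK1, a PAS kinase, was at 61.4, 91.9 and 100 in Glc5h and at 235, 193 and 146 in Glc24h, 2.27-fold higher (adjusted p = 0.0263). That call was lost in 7 of 22 alternatives, among them both fits with the glucose cultures as a block (adjusted p = 0.102 and 0.0568) and the omission of Glc5h culture 0 or 1 or Glc24h culture 0 or 1. PCL7, a cyclin of the Pho85 kinase, was at 27.1, 32.4 and 32.1 in Glc5h and at 43.9, 50.0 and 43.7 in Xyl72h, 1.50-fold higher (adjusted p = 0.0125). Its rise in Glc24h of 1.30-fold (adjusted p = 0.0490) was lost in 16 of 21 alternatives. SGA1, a glucoamylase that breaks down glycogen and is known from sporulating cells, was at 16, 16 and 39.2 in Glc5h, 85.1, 61.7 and 138 in Glc24h and 95.8, 65.7 and 121 in Xyl72h. It was 4.16-fold (adjusted p = 0.0106) and 4.23-fold (adjusted p = 0.0137) above Glc5h, folds that depend on the floor because 2 of the Glc5h cultures lay there.

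UDP-glucose also goes to trehalose, to cell wall glucan, to sterol glucoside and to protein glycosylation. Of 10 genes of those routes GAL7 and GAL10, which work in galactose use, were at the floor throughout. Of the 8 tested, against Glc5h 4 were higher and 2 lower in Glc24h, and 1 was higher and 2 lower in Xyl72h, while 0 were called between Xyl72h and Glc24h in limma, with 1 higher and 1 lower at an unadjusted p below 0.05 (medians 1.01, 0.49 and -0.15). As shares of all probe sets, Glc24h minus Glc5h had 14.4% called higher and 19.1% called lower. Xyl72h minus Glc5h had 11.7% and 14.0%, and Xyl72h minus Glc24h 3.37% and 2.26%. The 1 higher gene of 8 in Xyl72h and the 2 lower ones in Glc24h were near those shares. GSC2, a glucan synthase subunit, was 4.73-fold higher in Glc24h (adjusted p = 0.00428) and 4.52-fold higher in Xyl72h (adjusted p = 0.00673). FKS1, another glucan synthase gene of this list, went the other way in Glc24h, 1.73-fold lower than in Glc5h (adjusted p = 0.0320). In Xyl72h FKS1 did not differ from Glc5h by the test (adjusted p = 0.909), and no alternative fit is given for it. TSL1, a subunit of the trehalose synthase complex, was 3.95-fold higher in Glc24h (adjusted p = 0.0125). ALG5, which makes dolichol-phosphate glucose for glycosylation, was at least 3.10-fold lower in Glc24h (adjusted p = 0.00626) and 2.93-fold lower in Xyl72h (adjusted p = 0.0104). The Xyl72h signals of ALG5, from 16.3 to 18.1, lay just above the floor of 16, so that fold depends on the floor too. Both ALG5 calls were lost with a floor of 32. TPS3, another trehalose synthase subunit, was 1.84-fold lower in Xyl72h (adjusted p = 0.0260), a call lost in 9 of 21 alternatives.

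Glucose 6-phosphate, the entry to glycogen, is made by the hexose kinases and used by PGI1 and ZWF1. Of these 5 genes, against Glc5h 2 were higher and 1 lower in Glc24h, and 2 were higher and 0 lower in Xyl72h, while 1 was higher and 0 lower in Xyl72h than in Glc24h (medians 0.70, 1.74 and 1.04). The whole array had 14.4% of probe sets called higher and 19.1% called lower for Glc24h minus Glc5h. For Xyl72h minus Glc5h these shares were 11.7% and 14.0%, and for Xyl72h minus Glc24h 3.37% and 2.26%. The 1 lower gene of 5 in Glc24h was near the array's share. HXK1 was 6.48-fold higher in Glc24h (adjusted p = 0.0150) and 14.8-fold higher in Xyl72h (adjusted p = 0.00507). GLK1, the glucokinase gene, was 3.17-fold (adjusted p = 0.0232) and 3.63-fold (adjusted p = 0.0201) higher. HXK2, the main hexokinase on glucose, was at 713, 612 and 335 in Glc5h, 36.1, 21.9 and 44.3 in Glc24h, and 394, 460 and 395 in Xyl72h. It was 16.1-fold lower in Glc24h than in Glc5h (adjusted p = 0.000269) and 12.7-fold higher in Xyl72h than in Glc24h (adjusted p = 0.00255). The xylose cultures thus overlapped Glc5h for HXK2. In the fit of the 6 glucose samples alone with the culture as a block, GAC1, SGA1 and HXK2 kept their calls between Glc24h and Glc5h. The adjusted p there was 0.154 for GLC8, 0.130 for PCL7, 0.0839 for GSC2, 0.108 for TSL1, 0.0633 for ALG5, 0.102 for HXK1 and 0.139 for GLK1. With the xylose cultures kept in that fit, GLK1 (0.0517) and PCL7 (0.0555) still missed the threshold and the other 5 passed.

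**Figure D5:**
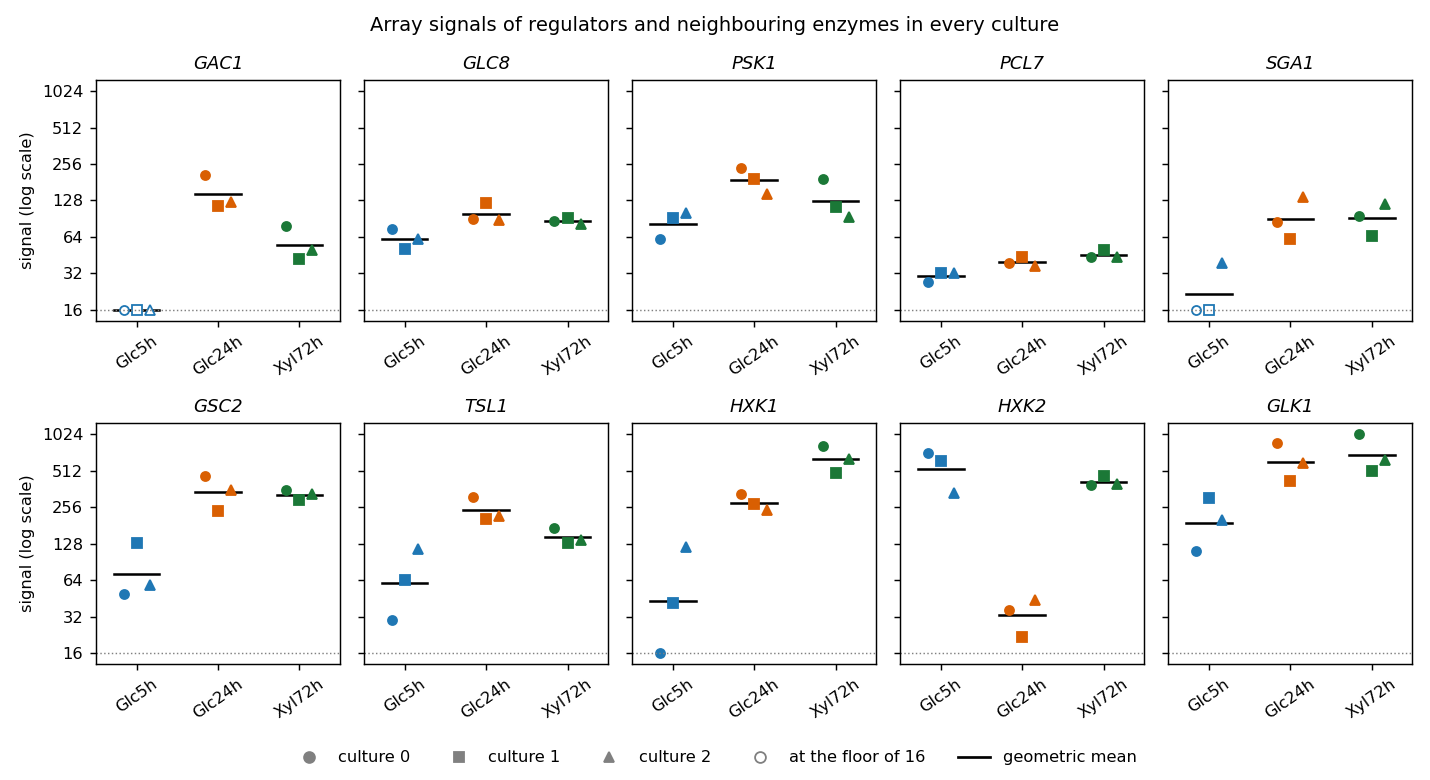
Signals (y axis, log scale, scaled array units) of 10 regulators and neighbouring enzymes in each culture of Glc5h, Glc24h and Xyl72h, with the geometric mean of 3 cultures as a bar and open symbols at the floor of 16. GAC1 is at the floor in Glc5h, highest in Glc24h and between them in Xyl72h, and HXK2 is low only in Glc24h.

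Genes with a profile like that of GSY2 or GPH1 were ranked by the root mean square difference of log2 signals over the 9 cultures. Each profile was centred on its mean. Compared were 2631 probe sets with 1 gene name and no culture at the floor. The 10 genes themselves were left out of the ranking. Nearest to GSY2 were TSL1 (0.198), NAB6 (0.198), SSD1 (0.203), YAK1 (0.224) and PRX1 (0.225). TSL1 is the trehalose subunit above, YAK1 encodes a protein kinase that acts against growth under protein kinase A, and PRX1 a mitochondrial peroxiredoxin. The means of TSL1 were 70.3, 245 and 146 in Glc5h, Glc24h and Xyl72h, where those of GSY2 were 45.7, 134 and 99.0. Nearest to GPH1 outside the 10 genes were the uncharacterised YDR262W (0.281), AMS1 (0.306), MSC1 (0.365), CPA1 (0.4001) and SDH1 (0.414). GPH1 itself was at the floor in Glc5h culture 0, so these distances and their order rest in part on a value known only as a bound. AMS1 encodes a vacuolar mannosidase, CPA1 a subunit of the carbamoyl phosphate synthetase of arginine synthesis and SDH1 a subunit of succinate dehydrogenase. The means of AMS1 were 45.6, 150 and 182, where those of GPH1 were 32.7, 179 and 176. Among the 10 genes themselves the closest pair was GLG1 with GLG2 (0.238), both at the floor in Glc5h, followed by GLC3 with PGM2 (0.360), GLC3 with GDB1 (0.362) and GPH1 with PGM2 (0.364).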

How the data were processed

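RNA of 9 cultures was hybridised to 15 Affymetrix Yeast Genome S98 arrays. The deposited values are linear signal intensity values that the authors extracted with Affymetrix MicroArray Suite 5.0. On each array their 2% trimmed mean lies at 50. The study's methods describe log2 values from another summary, which the deposited values are not, so they were treated as linear. A genome build is not given in the sources used here. 60 control probe sets were left out, each array was scaled to the median 75th percentile (51.1), values under 16 were set to 16, log2 was taken and the 3 hybridisations of a culture numbered 2 were averaged. Probe sets at the floor on every array were left out, which kept 5877 of 9275. Of the 9275, 6504 had 1 gene name, 328 several and 2443 none. All 9 cultures were fitted in 1 model (limma 3.58.1 in R 4.3.3, two-sided moderated tests, Benjamini-Hochberg over all tested probe sets, called at an adjusted p below 0.05). Ratios were compared by an exact permutation test over the 280 ways to part 9 cultures into 3 groups. The scripts were tested on simulated data. Plots were made in Python 3.11.15 (matplotlib 3.10.9).

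Groups were taken from the titles. The treatment notes of some arrays give another time. A fold against a state at the floor in all cultures is a bound. The number of the arrays limits the precision. The members and the lists were chosen with earlier results of these data known. All members were named, together with at most 3 genes per list and comparison that passed the test. The 5 genes outside the members nearest in profile to GSY2 and to GPH1 were named too. FKS1 was named beyond that limit. Glc5h and Glc24h samples of the same number came from the same culture, and their deviations from the state means correlated by 0.0204, 0.190 and 0.260 for numbers 0, 1 and 2. Samples of the same number in Xyl72h, from other cultures, correlated more closely with Glc24h (0.577, 0.529 and 0.566) and by 0.110, 0.284 and 0.202 with Glc5h. Alternatives were the array scaling, the floor, the filter, the first hybridisation alone, a trend in the spread, the culture as a block, the permuted variance analysis of the methods and the omission of each culture. The fit with glucose cultures as a block and the xylose cultures kept was added after seeing the data.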

Additional observations from a re-analysis of the deposited data

How the results depend on the processing

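PGM1 fell, GPH1 rose and GLG2 rose in Glc24h against Glc5h with no lost call except that of GPH1 in the fit of the glucose samples alone with the culture as a replicate block, where the genes higher in Glc24h went from 7 to 1 (GLG2) while the share of all probe sets went from 14.4% to 7.01%. With the number as a block in all states the Glc24h and Glc5h counts stayed at 7 higher and 1 lower. The shares of all probe sets were then 16.3% and 23.0%. No pairwise call of a member changed in that fit other than those of GLG1, GLG2 and PGM2 given with Xyl72h minus Glc5h. PGM1 was not tested at a mean signal of at least 50, where the lower genes were 0 in both comparisons with Glc5h and 6 members were tested. The genes higher in Xyl72h than in Glc5h went from 3 to 5 with scaling on reference genes, a floor of 4 or that filter, and to 1 with no filter, where the F-test passed 4 in place of 7. In these settings in turn 19.9%, 10.7%, 18.0% and 4.88% of all probe sets were higher in Xyl72h than in Glc5h, against 11.7% in the main fit. The methods' permuted variance analysis, at its unadjusted threshold, passed 5 of the 10 genes and 754 of all 5877 probe sets, and after Benjamini-Hochberg 3 and 512. It was run here on the scaled and floored signals over the 280 ways to part the cultures. The study used other log2 values and random permutations, so these counts cannot be set beside its own.

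With each culture left out in turn, the genes higher in Xyl72h than in Glc5h ranged from 1 to 5, those lower in Xyl72h than in Glc24h from 0 to 1, those higher in Glc24h than in Glc5h from 4 to 7 and those passing the F-test from 4 to 7. For the pairwise counts, in the same order, the shares of all probe sets ranged from 7.49% to 11.9%, from 0.80% to 2.23% and from 10.7% to 14.5%. The exact p ranged from 0.00714 to 0.0214 for GSY2 over GSY1, from 0.118 to 0.729 for GLG2 over GLG1 and from 0.0143 to 0.0357 for PGM2 over PGM1. With the replicate block it was 0.0556 for GSY2 over GSY1 and for PGM2 over PGM1. For GLG2 over GLG1 the sign of Glc24h minus Glc5h turned with a floor of 4 (exact p = 0.525) and without Glc24h culture 1 (exact p = 0.125).

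GPH1, Xyl72h minus Glc24h, was -0.17 as deposited, -0.23 after quantile, -0.16 after loess and -0.092 after reference-gene scaling, and -0.048 with the first hybridisation alone. With 1 culture left out it ranged from -0.19 (without Glc24h culture 2) to 0.16 and was -0.06 without Xyl72h culture 1. UGP1, Glc24h minus Glc5h, was 0.0074 after quantile, 0.022 after loess and 0.31 after reference-gene scaling. GSY1, Glc24h minus Glc5h, was -0.09 and -0.02 without Glc5h culture 0 or 1, within a range from -0.14 (without Glc24h culture 0) to 0.51. The causes were not tested.

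Scaling on reference genes moved the median of all probe sets to 0.15 in Xyl72h minus Glc5h and to 0.25 in Glc24h minus Glc5h. The probe sets called higher and lower over the whole array went from 686 and 822 to 1154 and 331 in the former and from 845 and 1124 to 1503 and 522 in the latter, and from 198 and 133 to 128 and 178 in Xyl72h minus Glc24h. As deposited they were 1022 and 840 in Glc24h minus Glc5h and 106 and 164 in Xyl72h minus Glc24h. Signals at the floor, such as those of GLG1, GLG2 and GAC1 in Glc5h and PGM1 in Xyl72h, limit what can be measured.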
